A study of Homo sapiens with 8 samples.

Results

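The genes described here encode proteins that nuclear receptors recruit to switch target genes on or off, other than SRC-1 itself. They were chosen by name, with earlier results of these data known. NCOA5, NCOA6, NCOA7, EP300, CREBBP, CARM1 and MED1 encode coactivators, and NRIP1 and NCOR1 encode corepressors. Every probe set that the platform annotation ties to 1 of these 9 genes alone was used, which gave 20 probe sets for 8 genes, out of 41091 probe sets for 19775 genes in all. NCOR1 had no such probe set and was not analysed here.

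The cells were A549, an established human lung adenocarcinoma line, on 8 Affymetrix arrays in 4 groups of 2. The cells carried SRC-1 siRNA or control siRNA, each with glucose and without it. All cells were transfected with DharmaFECT 1 and kept for 36 h in medium with 10% dialyzed serum before the change to medium with or without glucose, so the controls too were transfected. The duration of that last step was not given in the sources used here, and the design has no untransfected cells. The 2 arrays of a group are labelled as biological replicates, but no label says that the cultures were separate, so p-values measure only the spread between arrays, which may be technical.

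The arrays were alike in scale, with medians between 4.97 and 5.01 on the log2 scale and correlations between the replicates of a group from 0.997 to 0.998. The epithelial markers KRT8, KRT18, KRT19, CDH1 and EPCAM lay between percentile 78.6 (EPCAM) and 99.95 of probe sets, and the enzymes AKR1B10, AKR1C1, NQO1 and ALDH1A1, known to be abundant in A549, at 99.7 or above. The alveolar markers NKX2-1, SFTPB and SFTPC lay between 56.1 and 74.3. Among markers of other cell types, the leukocyte genes PTPRC, CD14 and CD3E lay between 10.4 and 50.6, the endothelial genes CDH5 and PECAM1 at 18.9 and 54.8, and the fibroblast genes COL3A1, PDGFRB and COL1A1 between 32.9 and 76.6. Without detection values none of these could be called absent. NCOA1, which encodes SRC-1, was checked as the target of the siRNA. Its log2 signal with SRC-1 siRNA was 5.47 and 5.18 with glucose and 5.22 and 5.09 without, against 8.60 and 8.42 with control siRNA and glucose and 8.34 and 8.24 with control siRNA without glucose. The target was thus lower on every SRC-1 siRNA array, 8.94-fold over both media (limma, adjusted p = 8.66e-07).

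Nuclear receptors bind DNA and, once their ligand is bound, hold coactivators through a short leucine-rich motif. SRC-1 and its relatives act as platforms that bring in enzymes: the acetyltransferases p300 (EP300) and CBP (CREBBP), which acetylate histones, and the arginine methyltransferase CARM1. MED1 is the Mediator subunit that contacts receptors and so couples them to RNA polymerase II, while NCOR1 is a scaffold through which receptors without ligand recruit histone deacetylase.

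The stretches upstream of the transcription start are shown for NCOA5 and MED1. These were the 2 genes called for glucose below whose several probe sets all differed in 1 direction, and each has a single start in the RefSeq table of GRCh38.p14. Both lie on the minus strand, at chr20:46089963-46090212 for NCOA5 and chr17:39451264-39451513 for MED1, and run 250 bases up to the start. Capitals mark matches, on either strand, to GGGCGG (the GC box) or CCAAT.
NCOA5: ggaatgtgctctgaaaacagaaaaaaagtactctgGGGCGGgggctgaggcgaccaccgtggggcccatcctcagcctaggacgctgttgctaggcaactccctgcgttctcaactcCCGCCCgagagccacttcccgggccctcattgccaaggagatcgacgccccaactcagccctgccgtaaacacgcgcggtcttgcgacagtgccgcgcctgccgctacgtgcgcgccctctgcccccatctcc
MED1: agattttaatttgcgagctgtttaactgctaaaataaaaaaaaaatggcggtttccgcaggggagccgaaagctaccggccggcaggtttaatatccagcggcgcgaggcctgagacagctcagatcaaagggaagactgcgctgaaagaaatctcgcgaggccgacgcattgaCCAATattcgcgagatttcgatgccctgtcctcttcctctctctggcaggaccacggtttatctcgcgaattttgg
The NCOA5 stretch held 2 GC boxes and no CCAAT, and the MED1 stretch held 1 CCAAT and no GC box. Of 35116 such stretches in the table, 42.6% held GGGCGG and 32% held CCAAT. The E-box CACGTG, found in 6.34% of all stretches, and TGATGNAA, the core of the amino acid response element, found in 3.14%, were in neither. A match is only a match of letters, and no binding was measured.

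Averaged over both siRNAs, 5 of the 8 genes passed an adjusted p of 0.05 for glucose, with NCOA5, NCOA7 and NCOA6 higher with glucose and CREBBP and MED1 lower. EP300, CARM1 and NRIP1 did not pass. The share is close to that of all genes, since 55.7% of the 13584 genes tested were called, 29.5% higher and 26.2% lower, and it is no result about these genes as a group. Without array 2 of either SRC-1 siRNA group, or array 1 of either control siRNA group, 3 of the 8 were called. The share of all genes called with an array left out was not recorded. The median difference over the 8 genes, each read by its brightest probe set, was 0.15 on the log2 scale, beside -0.00035 over all genes tested. For each gene these values are those of its brightest probe set, differences are with minus without glucose over 4 arrays each, with their standard error (SE), and tests are by limma with Benjamini-Hochberg adjustment over all genes tested.

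NCOA5, a coactivator that can also act as a corepressor of the oestrogen receptor, differed most among the brightest probe sets. Its log2 signal was 7.98 and 8.04 with SRC-1 siRNA and glucose and 7.37 and 7.16 with SRC-1 siRNA without glucose. With control siRNA it was 7.93 and 8.07 with glucose and 7.39 and 7.29 without. All arrays with glucose lay above all arrays without, whichever siRNA was used. The difference was 0.70 ± 0.063, or 1.63-fold (adjusted p = 2.43e-05). The other NCOA5 probe set, 234471_s_at, was also called higher in a fit of all probe sets (0.52 ± 0.13, adjusted p = 0.0156). Its lowest array with glucose, at 6.35, lay just under the highest without, at 6.38, so on this probe set the media overlapped.

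NCOA7, an oestrogen receptor-associated coactivator also known for a role in resistance to oxidation, was likewise higher. Probe set 225344_at had log2 signals of 11.92 and 11.86 with SRC-1 siRNA and glucose and 11.32 and 11.33 without glucose. The control siRNA arrays had 11.79 and 11.89 with glucose and 11.40 and 11.30 without. The gap between media was wide beside the spread of the replicates, and the groups did not overlap. It came to 0.53 ± 0.049, or 1.44-fold (adjusted p = 3.12e-05). The dimmer probe set 243807_at went the other way without passing (-0.15 ± 0.059, adjusted p = 0.0773), between 5.85 and 6.00 with glucose and between 6.05 and 6.15 without, and 1568805_at gave -0.37 ± 0.14 (adjusted p = 0.0667) at signals of 2.49 to 3.41. As the mean of the probe sets above the dim limit, NCOA7 differed by 0.19 and was still called (adjusted p = 0.00428).

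NCOA6, a receptor coactivator that also belongs to the histone methyltransferase complexes of KMT2C and KMT2D, rose on the brightest of its probe sets, 208979_at. Signals were 8.83 and 8.62 with SRC-1 siRNA and glucose, against 8.53 and 8.49 with the same siRNA without glucose. They were 9.04 and 9.03 with control siRNA and glucose, against 8.65 and 8.44 without glucose. The control siRNA arrays with glucose stood highest, and 1 array without glucose lay just above the lower of the SRC-1 siRNA arrays with glucose. The averaged difference was 0.35 ± 0.067, or 1.28-fold (adjusted p = 0.00189).

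Its second probe set, 1568874_at, ran the opposite way. Its signals were 4.24 and 4.29 with SRC-1 siRNA and glucose and 4.99 and 4.81 with SRC-1 siRNA without glucose. With control siRNA they were 3.63 and 4.05 with glucose and 5.35 and 5.18 without. Every array with glucose lay below every array without. The fit of all probe sets called it lower by -1.03 ± 0.099, or 2.05-fold (adjusted p = 5.76e-05). The mean of this probe set lies under the limit for dim probe sets, log2 4.80, so it was not in the fit by gene. With called probe sets on opposite sides, no direction can be given for NCOA6 as a whole. Which transcripts the probe sets read was not analysed here.

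**Figure D1:**
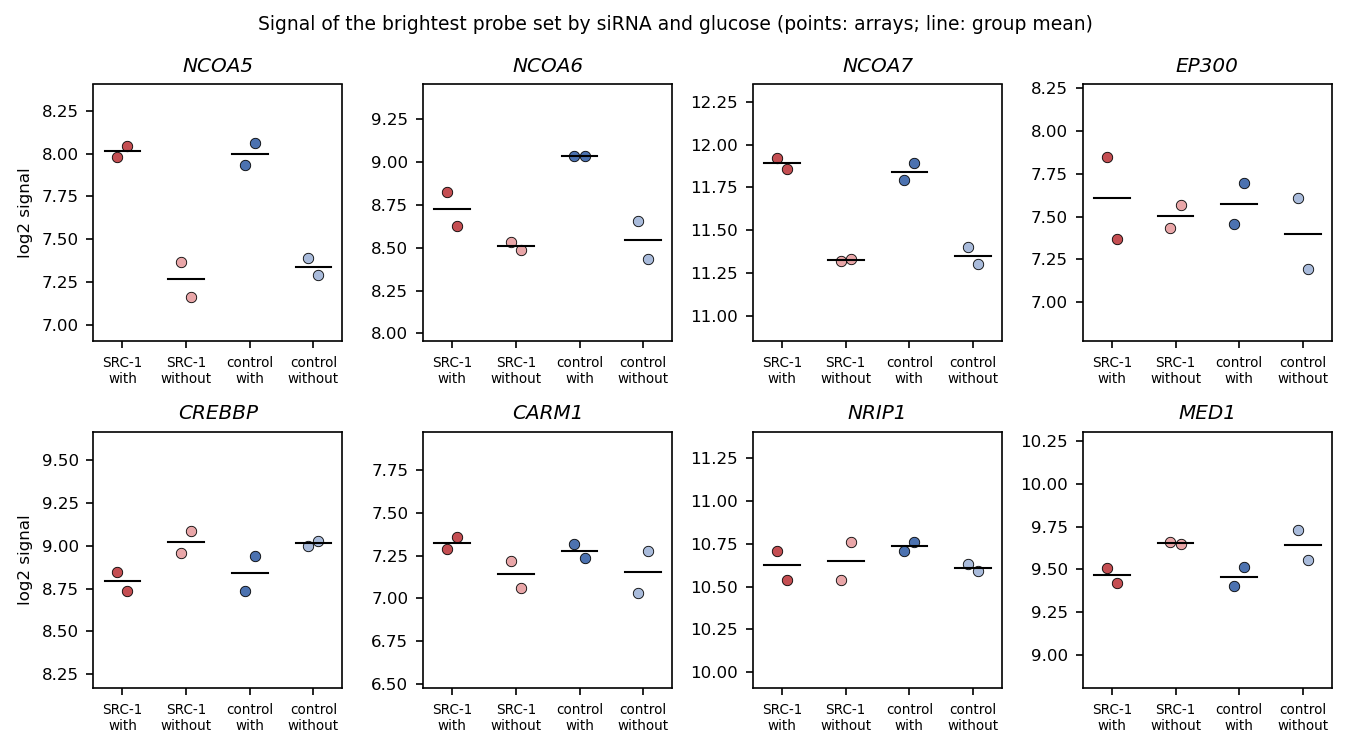
Log2 signal of the brightest probe set of each of the 8 genes, with a point for each array and a line for the mean of each group of 2. All panels span the same log2 range. NCOA5 and NCOA7 stand higher with glucose under both siRNAs, while CREBBP and MED1 stand slightly lower.

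The paired acetyltransferases gave small differences on their brightest probe sets. For CREBBP, 202160_at had 8.85 and 8.74 with SRC-1 siRNA and glucose and 8.96 and 9.09 without glucose. With control siRNA it had 8.74 and 8.94 with glucose and 9.0 and 9.03 without. The media lay side by side without overlap, with little room between them. The difference of -0.20 ± 0.063 was called in the fit by gene (adjusted p = 0.0233) but not in the fit of all probe sets (adjusted p = 0.0555). There its SE was 0.070 and more features were tested, and the cause of the lost call was not tested.

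Another CREBBP probe set, 228177_at, was called higher. It had 7.09 and 6.63 with SRC-1 siRNA and glucose and 6.51 and 6.32 without glucose, and with control siRNA 6.89 and 7.02 with glucose and 6.45 and 6.49 without. Here too all arrays with glucose were on 1 side of all arrays without, this time above them. It differed by 0.47 ± 0.10, or 1.38-fold (adjusted p = 0.00621). The other CREBBP probe sets, 211808_s_at (0.040 ± 0.085) and 235858_at (-0.068 ± 0.093), were not called. As the mean of its probe sets above the dim limit CREBBP differed by 0.10 and was not called (adjusted p = 0.141), so no direction can be given for the gene as a whole.

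EP300 varied more between replicates than between media. Probe set 213579_s_at had 7.85 and 7.37 with SRC-1 siRNA and glucose and 7.44 and 7.57 without glucose. With control siRNA the signals were 7.46 and 7.70 with glucose and 7.61 and 7.19 without. The groups overlapped throughout. The difference was 0.14 (95% interval -0.15 to 0.43, adjusted p = 0.373), and 202221_s_at gave 0.071 ± 0.12.

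CARM1 had a single probe set, at 7.29 and 7.36 with SRC-1 siRNA and glucose and 7.22 and 7.06 without glucose. With control siRNA it stood at 7.32 and 7.24 with glucose and 7.03 and 7.28 without. Its lowest array with glucose fell below its highest without. It differed by 0.15 ± 0.069 (adjusted p = 0.0914), and it was called only when array 2 of control siRNA without glucose was left out (0.21, adjusted p = 0.0266).

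For MED1, probe set 203497_at had 9.51 and 9.42 with SRC-1 siRNA and glucose and 9.66 and 9.65 without glucose. The control siRNA signals were 9.40 and 9.51 with glucose and 9.73 and 9.56 without. The arrays with glucose were the lower ones, and the highest of them came within a small step of the lowest without. The difference of -0.19 ± 0.057 was called in the fit by gene (adjusted p = 0.0208) and missed the threshold in the fit of all probe sets (adjusted p = 0.0555). All 4 MED1 probe sets had negative differences, and 203496_s_at was called there (-0.40 ± 0.084, or 1.32-fold, adjusted p = 0.00509). That probe set read 7.19 and 7.04 with SRC-1 siRNA and glucose and 7.44 and 7.29 without glucose, and with control siRNA 6.79 and 6.90 with glucose and 7.55 and 7.25 without. The remaining probe sets gave -0.16 ± 0.074 (225452_at) and -0.097 ± 0.070 (225456_at), and neither was called.

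NRIP1, also called RIP140, is a corepressor that many receptors hold only with ligand and that is known for repressing genes of energy metabolism. Its probe set 202599_s_at had 10.71 and 10.54 with SRC-1 siRNA and glucose and 10.54 and 10.76 without glucose. With control siRNA it had 10.71 and 10.76 with glucose and 10.63 and 10.59 without. Only under control siRNA did both arrays with glucose exceed both without. Over both siRNAs the difference was 0.05 (95% interval -0.097 to 0.20, adjusted p = 0.536), and 202600_s_at gave -0.12 ± 0.080. Neither probe set was called.

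Counted by probe set, 7 of the 20 were called for glucose, 5 higher and 2 lower, against 33.2% of all 41091 probe sets, 17.3% higher and 15.9% lower. In 8 of the 20 the arrays with glucose and those without did not overlap, 3 higher and 5 lower, against 34.9% of all probe sets. Both shares are near the background. The median difference over the 20 probe sets was -0.014, with 10 positive and 10 negative, beside -0.0017 over all probe sets. NCOA6 had called probe sets on opposite sides, CREBBP had 1 called higher beside its brightest probe set at -0.20, and the NCOA7 probe sets differed in sign.

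**Figure D2:**
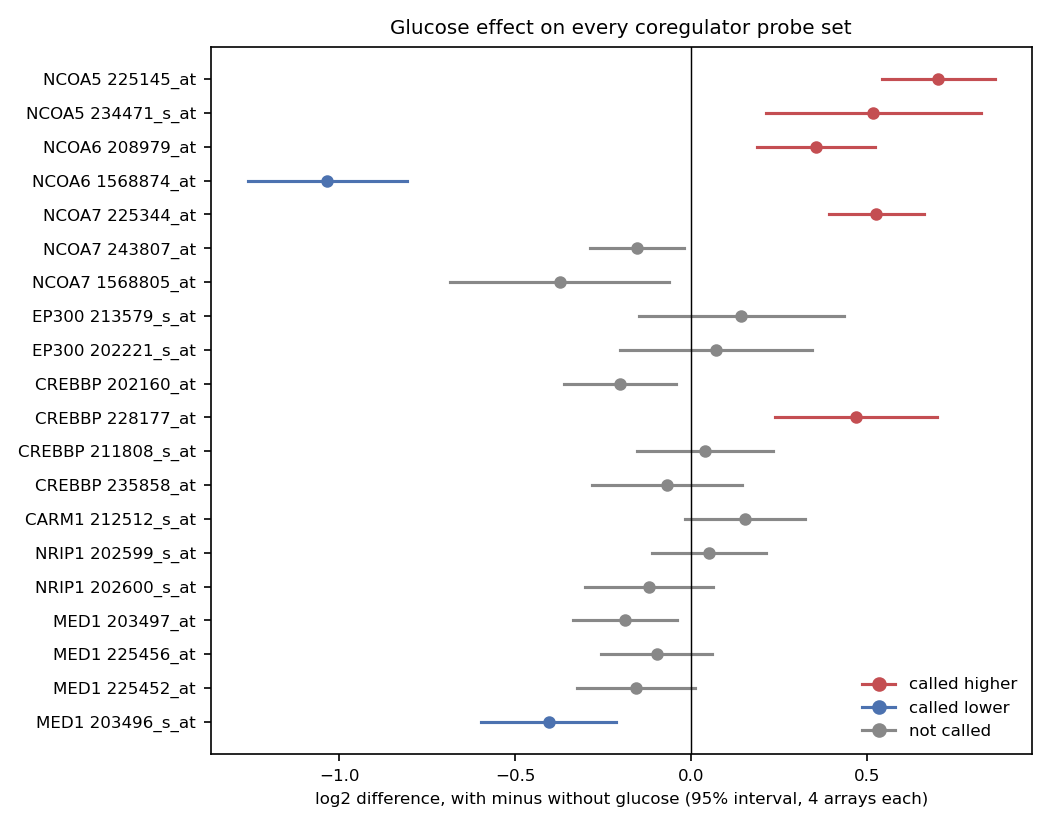
Log2 difference, with minus without glucose, for each of the 20 probe sets with its 95% interval (4 arrays against 4, fit of all probe sets), coloured by call. The NCOA5 probe sets lie right of 0 and the MED1 probe sets left of it, while those of NCOA6, NCOA7 and CREBBP lie on both sides.

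**Figure D3:**
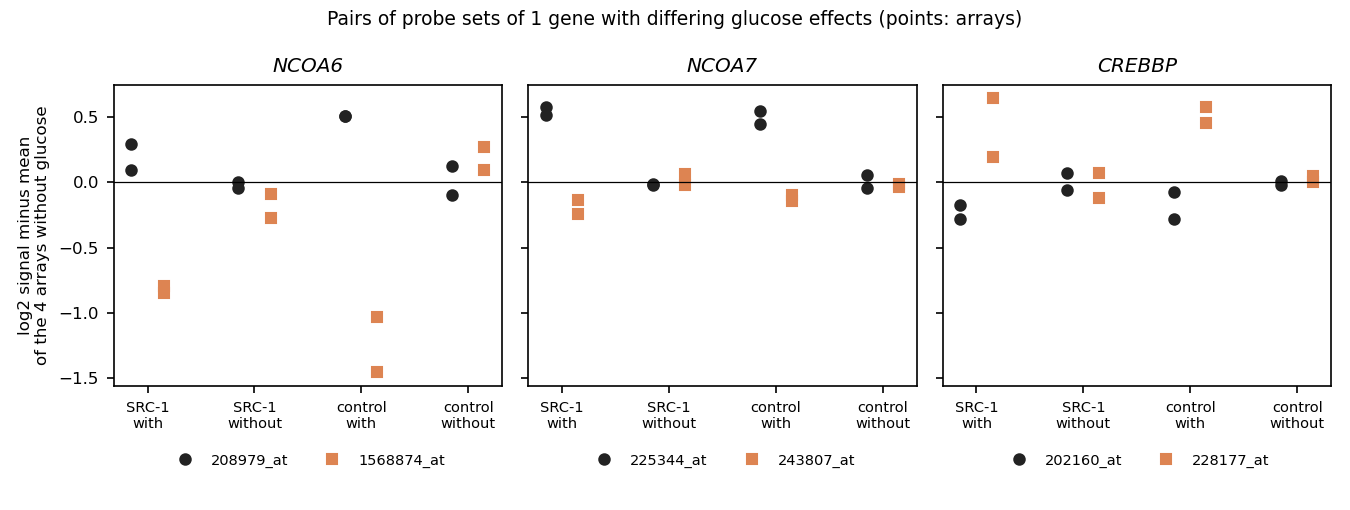
Log2 signal of each array minus the mean of the 4 arrays without glucose, for 2 probe sets each of NCOA6, CREBBP and NCOA7, chosen after the values were seen, as the brightest and one of opposite sign without overlap between media. With glucose the circles and squares move apart under both siRNAs, most in NCOA6 (0.35 against -1.03).

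The calls of CREBBP and MED1 did not hold whichever array was left out. Leaving out array 2 of SRC-1 siRNA with glucose, array 2 of SRC-1 siRNA without glucose, array 1 of control siRNA with glucose or array 1 of control siRNA without glucose ended both calls and left 3 genes called. CREBBP was also lost without array 2 of control siRNA without glucose (adjusted p = 0.0658), and MED1 without array 1 of SRC-1 siRNA without glucose (adjusted p = 0.0553). NCOA5, NCOA6 and NCOA7, each read by its brightest probe set, were called whichever array was left out. Of the 5 genes called, NCOA5 alone reached 1.5-fold. The 3' over 5' differences of the control probe sets for RNA quality were somewhat larger with glucose, with ranges that overlapped. The 3' over 5' difference of beta-actin was 0.513 to 0.643 with glucose and 0.414 to 0.535 without, and that of GAPDH 0.139 to 0.172 with glucose and 0.123 to 0.141 without. Their part in these results was not tested. In RNA from whole cultures, fewer cells of a kind and less RNA per cell cannot be told apart.

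Within each siRNA the glucose effect could be read from 2 arrays against 2. With SRC-1 siRNA, 2 of the 8 genes were called, NCOA5 (0.75 ± 0.089, adjusted p = 2.45e-04) and NCOA7 (0.56 ± 0.070, adjusted p = 3.02e-04), against 44.7% of all genes. With control siRNA, 3 were called, NCOA5 (0.66 ± 0.089, adjusted p = 4.92e-04), NCOA7 (0.49 ± 0.070, adjusted p = 6.35e-04) and NCOA6 (0.49 ± 0.095, adjusted p = 0.00304), against 45.2% of all genes. NCOA6 differed by 0.22 ± 0.095 with SRC-1 siRNA (adjusted p = 0.0994). CREBBP and MED1 were called with neither siRNA alone, at -0.23 and -0.19 with SRC-1 siRNA and -0.17 and -0.19 with control siRNA. With a prior that follows mean expression, 4 genes were called with SRC-1 siRNA, and the share of all genes under that setting was not recorded.

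The study's question was what loss of SRC-1 does to expression in each medium, and for these genes none of the differences between siRNAs passed. Averaged over both media, limma called 0 of the 8 genes and 0 of the 20 probe sets, against 0.0294% of all genes and 0.0146% of all probe sets. With glucose 0 of 8 were called, against 0.00736% of all genes, and without glucose 0 of 8, against 0.0221%. At an unadjusted p under 0.05 there was 1 gene averaged over both media, 1 with glucose and 0 without, beside 674, 781 and 434 of all 13584 genes.

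That gene was NCOA6 each time. With glucose it stood at 8.83 and 8.62 with SRC-1 siRNA and at 9.04 and 9.03 with control siRNA, a difference of -0.31 ± 0.095 (adjusted p = 0.832). Without glucose the difference was -0.035 ± 0.095 and the arrays overlapped. For NCOA5 the averaged siRNA difference was -0.029 (95% interval -0.17 to 0.12), for NCOA7 0.013 (-0.10 to 0.13), for CREBBP -0.019 (-0.16 to 0.12) and for MED1 0.0089 (-0.12 to 0.14). Those of CARM1 (0.016, interval -0.14 to 0.17) and NRIP1 (-0.034, -0.18 to 0.11) were as small, and EP300 had the widest interval (0.068, -0.22 to 0.36). Intervals of this width leave room for small differences, and a missed threshold does not show that the siRNAs act alike. In 0 of the 20 probe sets did the SRC-1 siRNA arrays and the control siRNA arrays fail to overlap, against 1.47% of all probe sets.

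**Figure D4:**
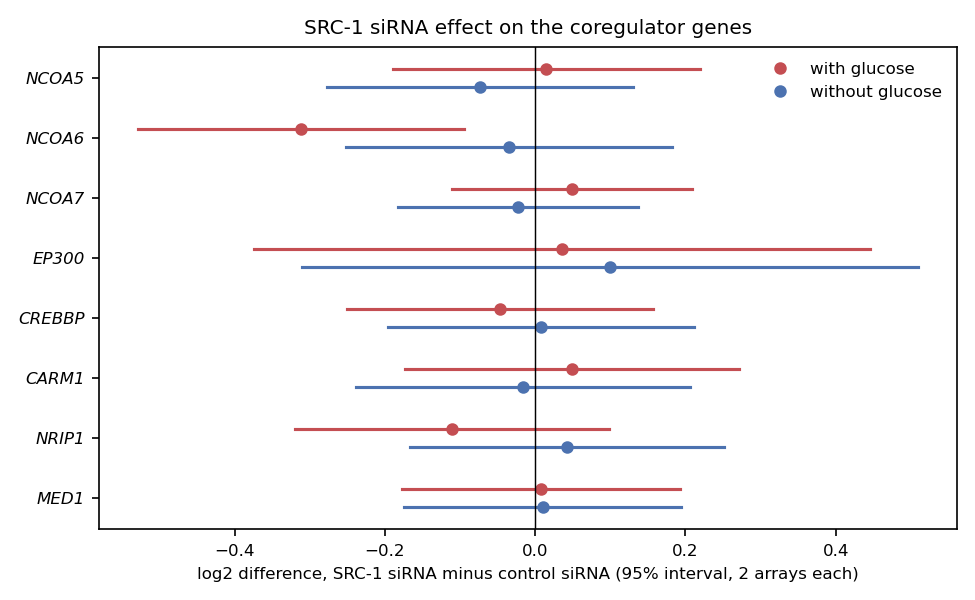
Log2 difference, SRC-1 siRNA minus control siRNA, in each medium with its 95% interval (2 arrays against 2) for the 8 genes, each read by its brightest probe set. The intervals all cross 0 except that of NCOA6 with glucose (-0.53 to -0.095), which was not called after adjustment.

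Whether the glucose effect differed between siRNAs was tested as an interaction, the effect with SRC-1 siRNA minus that with control siRNA. Limma called 0 of the 8 genes and 0 of the 20 probe sets, as it did among all genes (0%) and all probe sets (0%). At an unadjusted p under 0.05 there were 0 of the 8 genes, beside 465 of all 13584 genes, and 1 of the 20 probe sets, beside 1794 of all 41091 probe sets. NCOA6 had the interaction of greatest size among the 8 genes, at -0.28 ± 0.13 (adjusted p = 0.999), and that of NCOA5 was 0.088 ± 0.13. The probe set was 1568874_at of NCOA6, at 0.79 ± 0.20 (adjusted p = 0.9997).

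The proteins that work with these coregulators were followed in 7 lists of 110 genes, of which 99 were tested. For glucose, averaged over both siRNAs, 41 were called higher and 22 lower, or 63.6%, beside the 55.7% of all genes, and the median was 0.097. In the list of other nuclear receptor coactivators 14 of 24 were higher and 1 lower (median 0.22), against 29.5% higher and 26.2% lower among all genes. The lists were chosen with earlier results of these data known, so these counts are a description and no test of a list. RBM14 (1.33 ± 0.072, 2.51-fold) and the helicase DDX5 (1.30 ± 0.063, 2.46-fold), both RNA-binding coactivators, and CCAR1 (0.85 ± 0.053), which bridges receptors and Mediator, rose. PNRC1, a small receptor-binding coactivator, fell (-0.92 ± 0.055). DDX5 ran from 8.69 to 8.90 with glucose and from 7.36 to 7.58 without, so its media were far apart.

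Among Mediator subunits other than MED1, 10 of 28 were higher and 7 lower, with a median of 0.0087, close to the 29.5% higher and 26.2% lower among all genes. MED31 stood out at 1.26 ± 0.048 (2.39-fold), with 10.40 to 10.47 on arrays with glucose and 9.09 to 9.29 on those without. MED13, of the kinase module, rose by 0.71 ± 0.067, while MED8 (-0.66 ± 0.048) and MED10 (-0.59 ± 0.046) fell like MED1.

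The complex through which NCOR1 acts was measured by its partners. All 4 tested were called, 3 higher and 1 lower (median 0.36), against 55.7% of all genes called, and 4 genes are too few to set the list apart. The exchange factors TBL1XR1 (0.99 ± 0.060, 1.99-fold) and TBL1X (0.51 ± 0.046) and the deacetylase HDAC3 (0.20 ± 0.051) rose, and GPS2 fell (-0.36 ± 0.065). TBL1XR1 lay between 10.77 and 10.98 with glucose and between 9.85 and 9.95 without. Other corepressor partners, including those that NRIP1 binds, had 6 of 15 higher and 5 lower (median 0.068), against 29.5% higher and 26.2% lower among all genes. The deacetylases HDAC4 (0.82 ± 0.060) and HDAC1 (0.73 ± 0.059) and the demethylase KDM1A (0.41 ± 0.051) rose, and CTBP2, a corepressor of the CtBP family, fell (-0.44 ± 0.057).

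The enzyme families beside p300, CBP and CARM1 held few genes each, and their counts stand beside 29.5% higher and 26.2% lower among all genes. Of 12 other acetyltransferases and partners, 3 were higher and 2 lower (median 0.024). HAT1 (0.75 ± 0.057) and KAT2A (0.41 ± 0.052) rose, and KAT6B (-0.63 ± 0.060) and the p300/CBP-binding CITED4 (-0.77 ± 0.051) fell. Arginine methyltransferases other than CARM1 had 1 of 7 higher and 4 lower (median -0.18). PRMT7 rose (0.55 ± 0.047), and PRMT5 (-0.34 ± 0.046), PRMT2 (-0.34 ± 0.051) and PRMT1 (-0.32 ± 0.049) fell. In the KMT2C and KMT2D complex that holds NCOA6, 4 of 9 were higher and 2 lower (median 0.23). PAXIP1 (0.53 ± 0.044), DPY30 (0.48 ± 0.046) and RBBP5 (0.35 ± 0.058) rose, and ASH2L fell (-0.33 ± 0.053).

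For SRC-1 siRNA averaged over both media, limma called 0 of these 99 genes, against 0.0294% of all genes, and no difference was over 0.12 in size. At an unadjusted p under 0.05 there was 1 of the 99, beside 674 of all 13584 genes. For the interaction it called 0, as among all genes, with 2 of the 99 at an unadjusted p under 0.05, beside 465 of all genes.

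**Figure D5:**
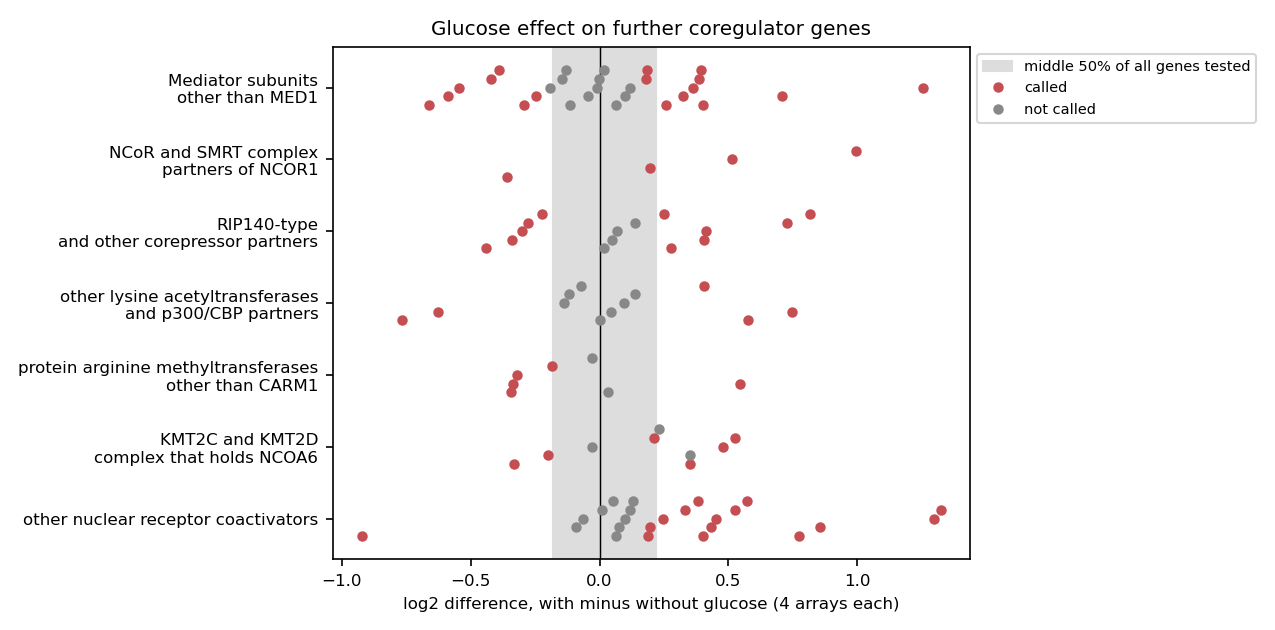
Log2 difference, with minus without glucose, averaged over both siRNAs, for the 99 genes tested in the 7 lists, with a point for each gene coloured by call and the middle 50% of all genes tested in grey (-0.18 to 0.22). The coactivators lie mostly right of 0 (14 higher, 1 lower), whereas Mediator subunits lie on both sides (10 higher, 7 lower). Of all genes tested, 29.5% were called higher and 26.2% lower. The lists were chosen with earlier results of these data known.

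For each of the 5 genes called, the genes whose log2 signal followed it most closely over the 8 arrays were found by Pearson's r, as a description. NCOA7 was followed by APOH (r = 0.999), TARDBP (0.998) and CPNE3 (0.997), and NCOA5 by CBX2 (0.996), SCARA3 (0.995) and MGAT5 (0.994). NCOA5 had 1287 genes and NCOA7 1657 genes with r over 0.95, so the closest few are only the top of a large group that parts the arrays by medium. NCOA6 had 10 such genes, led by CYFIP2 (0.992), SHISAL1 (0.971) and LINC00312 (0.968). CREBBP had 16, led by TNFAIP8 (0.982), KIF12 (0.970) and NUP54 (0.969), and MED1 had 20, led by KIF7 (0.981), MSRB2 (0.971) and KNSTRN (0.969). The points of each correlation share the arrays and the split by medium.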

How the data were processed

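The values used were log2 signals per probe set, as deposited in the authors' table of 8 arrays. The authors' background correction, probe summary and normalization were not given in the sources used here. Base 2 was inferred from the size of the values (1.98 to 14.7). Names came from the platform annotation and the Entrez identifiers of RefSeq GRCh38.p14. Of 54675 probe sets, 41091 had 1 gene. For the fit by gene, those with a mean under the 40th percentile (log2 4.80) were left out and the brightest probe set of each gene was kept (13584 genes), and 17 of the 20 coregulator probe sets passed. The fit of all probe sets had no filter.

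All arrays entered 1 limma fit (limma 3.58.1, R 4.3.3) with a mean per group, 4 residual and 4.35 prior degrees of freedom, and two-sided moderated tests with Benjamini-Hochberg adjustment at 0.05. The median SE of a difference was 0.0590 averaged over the other factor and 0.0834 between 2 groups, with precision limited by the number of arrays. The fit was also tested on simulated data, whose outcome is not reported here and on which no result rests. The main fit did not pair arrays by replicate number. Deviations of same-numbered arrays correlated by -0.096 to 0.12 over 6 pairs of groups, and 1 exceeded 0.1. Such correlations cannot show whether same-numbered arrays were prepared together.

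Named are the 9 coregulators with each probe set, NCOA1, up to 4 genes with the smallest p for glucose from each list, and the 3 closest genes to each called coregulator. The coregulators and lists were chosen with earlier results of these data known. The pairs of probe sets drawn, and the promoters printed, were chosen after their values were seen. Alternatives were quantile normalization, median centring, other filters and probe set rules, a trended prior, array weights, fits of the groups compared, a replicate block, a 1.5-fold minimum and each array left out.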

Additional observations from a re-analysis of the deposited data

Results flagged for a closer look

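Probe set 1568874_at of NCOA6 had glucose effects that differed between siRNAs by 0.79 ± 0.20 on the log2 scale, at -0.64 with SRC-1 siRNA and -1.43 with control siRNA. With glucose its SRC-1 siRNA arrays (4.24 and 4.29) lay above the control siRNA arrays (3.63 and 4.05), and without glucose they (4.99 and 4.81) lay below them (5.35 and 5.18). This order of the arrays drew attention to the probe set, but neither siRNA difference was called (0.42 with glucose, adjusted p = 0.819, and -0.36 without, adjusted p = 0.9999). In the limma fit of all probe sets the interaction had an unadjusted p of 0.00355 and was not called after adjustment (adjusted p = 0.9997). The mean signal of this probe set lies under the dim limit of log2 4.80.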

How the results depend on the processing

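NCOA5 kept its call and direction under all 18 alternatives (0.61 to 0.75), and NCOA6 (0.30 to 0.41) and NCOA7 (0.19 to 0.55) under all but the 1.5-fold minimum. With that minimum 1 gene was called for glucose averaged over both siRNAs, 1 with SRC-1 siRNA, 1 with control siRNA, and 2 of the 20 probe sets averaged. A prior that follows mean expression gave 4 genes called with SRC-1 siRNA. Leaving out 1 array gave 3 to 5 genes called for the averaged effect. CREBBP (-0.25 to 0.10) lost its call under 6 alternatives and reversed as the mean of its probe sets (0.10), where the probe sets averaged had opposite signs, and MED1 (-0.23 to -0.14) lost its call under 6. NRIP1, not called, reversed as the mean of its probe sets (-0.035), and ran from -0.0044 to 0.11 when 1 array was left out. The cause of the other changes was not tested. The share of all genes called under each alternative was not recorded, so the counts of genes called have no background beside them. With a replicate block 5 genes were called for the averaged glucose effect, 2 with SRC-1 siRNA and 3 with control siRNA, the same counts as without it, and each of the 8 genes kept its side of the threshold for the averaged effect. The differences between siRNAs and the interaction gave 0 calls of the 8 genes under every alternative run. The 2 arrays a group limit the precision, and with no background values at hand, folds of dim probe sets may be compressed.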
